A study of Rattus norvegicus with 3 samples.

Results

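The 10 genes described here are p53 targets linked to cell cycle arrest: Cdkn1a, Ccng1, Btg2, Plk2, Plk3, Gadd45a, Zmat3, Ccng2, Gdf15 and Tp53inp1. They were taken by symbol from a table of 18425 genes, and all 10 were listed. The table holds 3 RNA libraries of whole retinas from wild-type Sprague Dawley rats, 1 library per condition. Each eye received 1 µl into the vitreous at postnatal day 1, and retinas were collected at postnatal day 4. The buffer library came from eyes given citrate buffer of pH 4.5, the solvent of streptozotocin (STZ). The saline library came from eyes given saline, and the STZ library from eyes given 10 µg of STZ. STZ is a nitrosourea linked to a glucosamine and alkylates DNA. The labels give the genotype of all 3 as WT, and how many retinas or pups were pooled per library is not given in the sources used here. In its toxicity experiments the study gave STZ to the right eye and buffer to the left eye of one animal. Whether the sequenced retinas were paired in this way is not given, so the STZ and buffer libraries may share animals.

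The libraries were alike in depth, with 21977846 to 22031241 estimated reads. With 1 library per condition the spread between animals is unknown, so no p-value was computed. A fold and a count ratio are given for each comparison. The fold is (FPKM + 1)/(FPKM + 1), where FPKM counts reads per kilobase of transcript and scales them to library size. Following the study's methods, a gene was called higher where its fold was over 54% above 1 (the upper threshold) and lower where it was under 0.65 (the lower threshold). The count ratio divides the share of all reads that a gene took in one library by its share in the other, with an exact Clopper-Pearson 95% interval that covers counting error only. As a picture of how far libraries differed without STZ, the count ratio of saline to buffer lay between 0.809 and 1.3 for the central 95% of the 11802 genes with a mean of at least 100 reads. For the same genes the central 95% was wider in the STZ comparisons, 0.705 to 1.5 against buffer and 0.657 to 1.53 against saline. All 13 listed markers of retinal progenitors and all 10 of photoreceptor precursors had a mean of at least 10 reads, so the defining genes of the labelled tissue were present.

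The transcription factor p53 is stabilised after DNA damage and switches on genes that stop the cell cycle, repair DNA or kill the cell. Its best known arrest target is Cdkn1a, whose product p21 binds complexes of cyclins and cyclin-dependent kinases (CDKs) and holds cells before S phase. The retina of a newborn rat still holds dividing progenitors, which make rods, bipolar cells and Müller glia after birth. Several of the genes also have other inputs: Btg2 marks neurogenic divisions, Ccng2 is switched on by FoxO factors, and Plk2 and Plk3 respond to growth factors and activity.

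The members did not move as a block. Whole retina was measured, so fewer cells of a type and less RNA per cell cannot be told apart in any value here. In STZ against buffer, Cdkn1a, Ccng1 and Plk2 were above the upper threshold and 0 were below the lower one, so 3 of 10 were called. Of all 18425 genes, 3.29% were called, 2.25% higher and 1.04% lower. In STZ against saline, the 3 called were Cdkn1a, Ccng1 and Gdf15, all higher, beside a background of 3.78% called, 2.04% higher and 1.75% lower. Cdkn1a and Ccng1 were the only members called against both controls, and both comparisons share the STZ library. In saline against buffer, 0 of 10 were called in either direction by these folds, where 1% of all genes were called higher and 0.429% lower. The median log2 fold of the 10 genes was 0.16 when STZ was set against buffer and 0.24 when it was set against saline. Between the controls it was 0.02. Over the 14885 genes with a mean of at least 10 reads the medians were 0.03, 0.01 and 0.02. Of these genes, 2.58% were called higher and 1.15% lower against buffer, and 2.37% higher and 1.95% lower against saline. Of the 10 members, 6 had a fold above 1 and 4 a fold below 1 against each control, close to the background, since 56.0% of the 14885 genes had a fold above 1 against buffer and 52.1% against saline. Without Gdf15, the gene with the fewest reads, the median of the members was 0.093 against buffer and 0.0915 against saline.

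**Figure D1:**
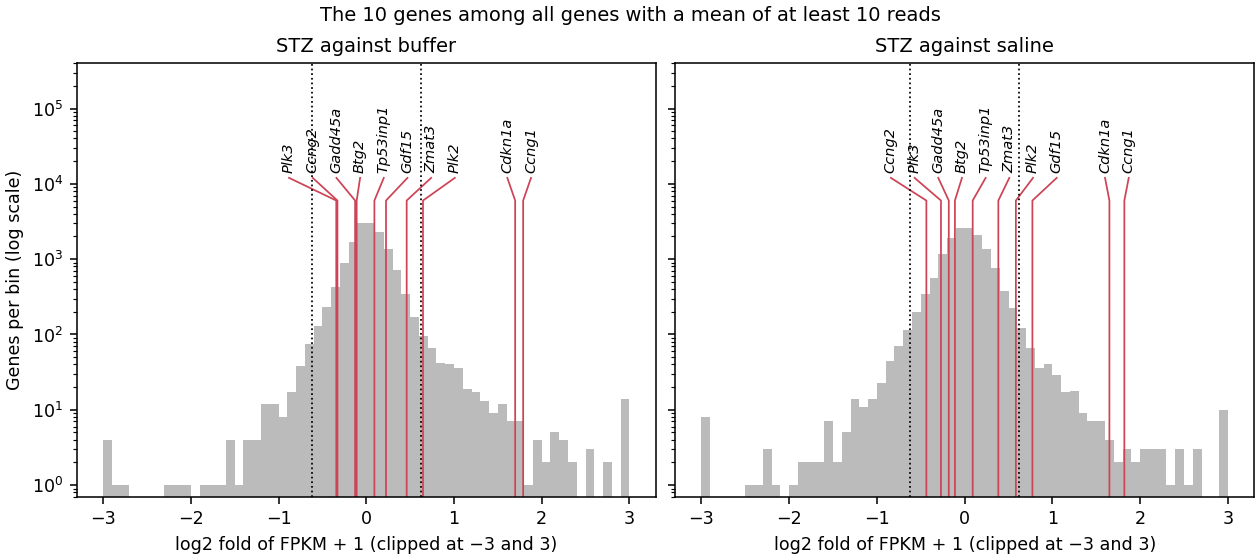
Histograms of the log2 fold of FPKM + 1 for all 14885 genes with a mean of at least 10 reads, with the number of genes per bin on a log scale. Red lines mark the 10 p53 targets and dotted lines the upper and lower thresholds. Cdkn1a and Ccng1 lie far in the right tail in both comparisons, while Btg2 and Tp53inp1 lie near the middle.

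Cdkn1a had 434 reads (buffer), 449 (saline) and 1496 (STZ). The FPKM of Cdkn1a rested at 11.5 (buffer) and 11.9 (saline) and stood at 39.5 with STZ, a fold of 3.24 over buffer and 3.14 over saline. The controls differed by less than their counting error, with a count ratio of 1.04 (95% counting interval 0.905 to 1.18), and STZ lay far above both. Its fold in STZ against buffer ranked 46 of the 14885 genes, and against saline it ranked 37. Its level moved from below the median gene of the buffer library, at percentile 47.7 of FPKM, to percentile 81.2 in STZ.

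Ccng1 encodes cyclin G1, a direct p53 target that brings a protein phosphatase to the p53 antagonist Mdm2. It had 1942 reads (buffer), 1896 (saline) and 6882 (STZ). The FPKM was 29.8, 29.1 and 105 in the same order. The count ratio was 3.54 against buffer (3.36 to 3.72) and 3.62 against saline (3.44 to 3.81), and the controls overlapped within counting error at 0.977 (0.917 to 1.04). The fold, 3.45 over buffer and 3.53 over saline, ranked 39 against buffer and 32 against saline. The interval of its count ratio against buffer overlapped that of Cdkn1a, which was 3.44 (3.09 to 3.84). The FPKM of Ccng1 over that of Cdkn1a was 2.59 in buffer (2.34 to 2.89), 2.45 in saline (2.21 to 2.72) and 2.67 in STZ (2.52 to 2.82). The intervals of this ratio overlapped among the 3 libraries, while each was more than 3-fold higher in STZ.

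The windows around the annotated starts of these genes are shown because both hold a close match to the p53 response element, a run of 20 bases made of a decamer consensus repeated without a spacer. RefSeq's table for the rat build GRCr8 held such a window, 250 bases before to 50 after the start, for 8 of the 10 genes, and none was given there for Zmat3 and Tp53inp1. Each window was read along the strand of its gene, and since the consensus equals its own reverse complement, both strands were covered. Only runs with the C and G of both decamer cores were scored. The 250 bases before the start of Cdkn1a (chr20:7150682-7150931, plus strand) and of Ccng1 (chr10:25684877-25685126, minus strand) follow 5′ to 3′, with the best run of 20 in capitals.
Cdkn1a: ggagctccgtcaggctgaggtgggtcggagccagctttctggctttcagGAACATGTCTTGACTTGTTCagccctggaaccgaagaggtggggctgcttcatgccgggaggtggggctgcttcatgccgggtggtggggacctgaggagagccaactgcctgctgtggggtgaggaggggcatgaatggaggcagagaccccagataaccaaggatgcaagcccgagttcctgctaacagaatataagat
Ccng1: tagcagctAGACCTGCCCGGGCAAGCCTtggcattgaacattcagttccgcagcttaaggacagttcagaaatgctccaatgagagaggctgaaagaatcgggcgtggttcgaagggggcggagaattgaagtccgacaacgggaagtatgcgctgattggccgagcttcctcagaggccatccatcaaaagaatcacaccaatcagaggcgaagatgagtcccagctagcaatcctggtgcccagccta
In each gene 19 of the 20 positions matched. The run began 201 bases before the start in Cdkn1a and 242 bases before it in Ccng1. Of all 33469 windows in the table, 17 held a run with at least 19 matches, 0.0508%, and 0 held a run with 20.

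The best runs of the other members matched less well, and are printed to show how far they lie from the runs above, with matching bases in capitals and the others in lower case.
Gadd45a (chr4:97486925-97486944, minus strand): tAGCTTGgTgGAGCTAGCgT
Plk3 (chr5:135849115-135849134, minus strand): GAGCAgGgTTAtACcTGCTa
Gdf15 (chr16:18838433-18838452, plus strand): GAACTTGgTgAcACcTGgTg
Plk2 (chr2:43702382-43702401, plus strand): AGcCAgGCCaAAGCccGCga
Ccng2 (chr14:15097354-15097373, minus strand): GGACTAGgagAGtCTgGgTa
Btg2 (chr13:48087839-48087858, minus strand): AGGCgcGggCGAGCggGagg
All lie in GRCr8, and Gdf15, with 2 annotated starts, is shown for the better of them. Gadd45a matched at 16 positions, Plk3 at 15, Gdf15 at 14, Plk2 and Ccng2 at 13 and Btg2 at 11. A run with at least 16 matches was held by 4.6% of all windows and one with at least 15 by 11.6%, so these are common. These letters describe the windows only, and no binding was measured. The cyclic AMP response element TGACGTCA, which reads the same on both strands, began 66 bases before the start of Plk2 and 201 bases before that of Btg2, and 1.83% of all windows held it.

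Plk2, a polo-like kinase induced by p53 and by neuronal activity, was the third member called higher than in buffer. It had 394 reads in buffer, 414 in saline and 650 in STZ, at an FPKM of 7.06, 7.42 and 11.6. STZ was above both controls, which lay close together. Its count ratio was 1.65 against buffer (1.45 to 1.87) and 1.57 against saline (1.38 to 1.78), both beyond the central range of all genes in the same comparison, though only just against saline (upper end 1.53). By the fold it stood at the threshold, with 1.57 against buffer and 1.5 against saline. Its call against buffer was lost with scaling by the TMM factors, at a fold of 1.53.

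Zmat3, which encodes an RNA-binding zinc finger protein induced by p53, had 1449 reads (buffer), 1536 (saline) and 2057 (STZ), at an FPKM of 9.2, 9.76 and 13.0. The 3 values put STZ above both controls. The count ratio was 1.42 against buffer (1.32 to 1.52) and 1.34 against saline (1.25 to 1.43). Its folds of 1.38 and 1.3 were short of the upper threshold, at percentiles 95.5 and 92.7 of all genes. Zmat3 had more reads than Cdkn1a in every library but a lower FPKM, because the length implied by its reads and FPKM was 7.16 kb, against 1.72 kb for Cdkn1a.

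Gdf15 encodes a secreted cytokine of the TGF-beta superfamily that rises in many kinds of stress. Its estimated reads were 24.0 (buffer), 11.6 (saline) and 30.6 (STZ), the lowest of the 10 genes and the only ones with fractions, at an FPKM of 1.6, 0.78 and 2.04. The STZ value lay above both controls, but the controls lay further from each other than buffer from STZ. The count ratio was 1.29 against buffer (0.732 to 2.3), 2.58 against saline (1.29 to 5.51) and 0.5 for saline against buffer (0.228 to 1.04). The saline library had the lowest value, and a difference from buffer within these bounds was not detectable at this depth.

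Tp53inp1, whose product promotes the activity of p53 and autophagy, had 1936 reads (buffer), 1941 (saline) and 2093 (STZ), at an FPKM of 27.1, 27.1 and 29.0. The difference was small, with a count ratio of 1.08 against buffer (1.01 to 1.15) and 1.08 against saline (1.01 to 1.14). With TMM scaling both intervals held 1.

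**Figure D2:**
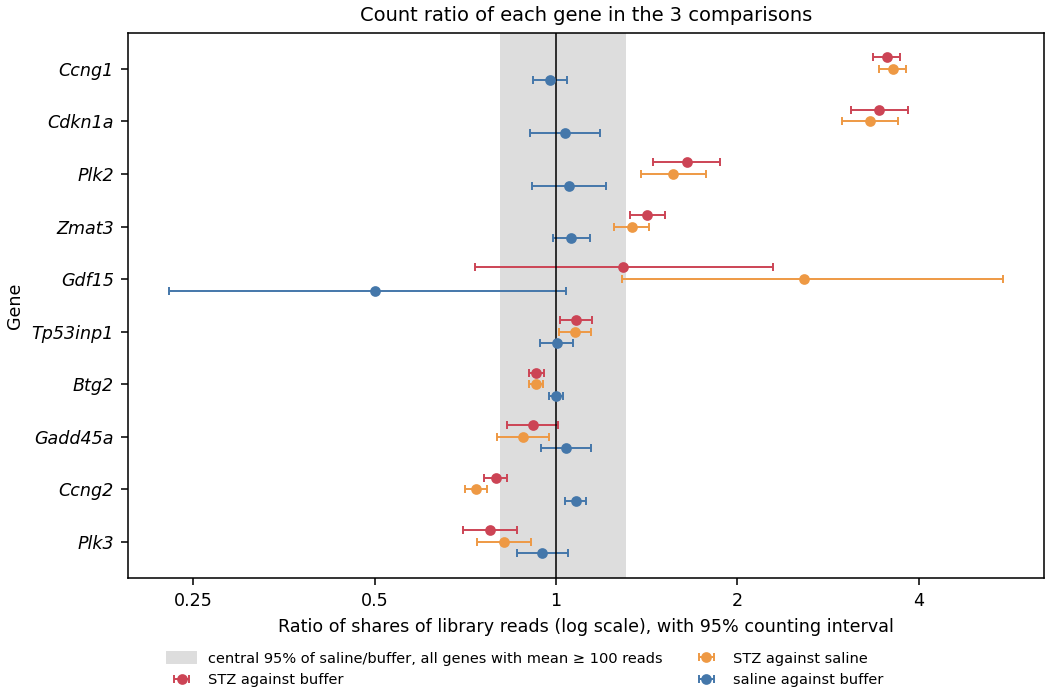
Count ratio of each gene, the ratio of its shares of library reads, on a log axis with 95% counting intervals, for each of the 3 pairs of libraries. The grey band is the central 95% of the saline to buffer ratios over genes with a mean of at least 100 reads, 0.809 to 1.3. The points of Ccng1, Cdkn1a, Plk2 and Zmat3 lie to the right of the band against both controls, and those of Ccng2 lie to its left. The central ranges of the STZ comparisons themselves are wider and take in Zmat3 and Ccng2.

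The remaining members were lower in the STZ library or close to the controls. Ccng2 encodes cyclin G2, an atypical cyclin that slows the cell cycle and is high in cells leaving it. It had 4630 reads in buffer, 4988 in saline and 3685 in STZ, at an FPKM of 94.0, 101 and 74.6. STZ was below both controls, with a count ratio of 0.795 against buffer (0.761 to 0.83) and 0.737 against saline (0.706 to 0.769). Ccng2 was also the only member whose interval excluded 1 between the controls, at 1.08 for saline against buffer (1.04 to 1.12).

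Plk3, a stress-responsive polo-like kinase, had 846 reads (buffer), 802 (saline) and 659 (STZ), at an FPKM of 17.8, 16.9 and 13.9. STZ was the lowest of the 3. Its count ratio was 0.778 against buffer (0.701 to 0.862) and 0.82 against saline (0.738 to 0.91). Btg2, an antiproliferative protein that acts through mRNA deadenylation, had 10359 reads (buffer), 10361 (saline) and 9621 (STZ). The controls were 2 reads apart, and STZ was lower by a ratio of 0.927 against buffer (0.902 to 0.953). Gadd45a, which binds PCNA and Cdk1 and takes part in the G2 checkpoint, had 843, 874 and 772 reads, at an FPKM of 39.0, 40.6 and 35.7. STZ was again the lowest. Its ratio was 0.914 against buffer (0.828 to 1.01) and 0.881 against saline (0.799 to 0.972). The folds of these 4 genes, 0.789 to 0.927 against buffer and 0.739 to 0.926 against saline, all stayed above 0.65.

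Read against the counting intervals alone, 5 members were higher in STZ than in buffer and 3 lower. Of the 18027 genes with reads in either library, 22.2% and 15.8% were. Against saline 6 members were higher and 4 lower, beside 22.5% and 19.8% of 18120 genes. Of the 14885 genes with a mean of at least 10 reads, 3903 were higher and 2802 lower against buffer. Against saline these were 4007 and 3498. Intervals this narrow exclude 1 for many genes even between the controls, 13.6% higher and 10% lower, so for well covered genes they say little about the treatment. Among members with a mean of at least 100 reads, the ratios of Cdkn1a, Ccng1 and Plk2 lay outside the central 95% of all genes in the same comparison, against each control. Those of Zmat3, Ccng2, Plk3, Btg2, Gadd45a and Tp53inp1 lay inside it. Zmat3 and Ccng2 were outside only the narrower range between the controls, in both comparisons, and Plk3 was outside it against buffer. Gdf15 is too thinly covered for this reading.

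Per length, Btg2 was the most abundant member in every library, with an FPKM of 206 (buffer), 206 (saline) and 191 (STZ). The order in buffer was Btg2, Ccng2, Gadd45a, Ccng1, Tp53inp1, Plk3, Cdkn1a, Zmat3, Plk2 and Gdf15, and the saline library had the same order. All neighbours in both orders differed beyond counting error, with the closest pair being Ccng1 and Tp53inp1, at an FPKM ratio of 1.1 in buffer (1.03 to 1.17) and 1.07 in saline (1.01 to 1.14). In STZ the order began with Btg2, Ccng1, Ccng2, Cdkn1a and Gadd45a. There Plk3 and Zmat3 did not differ beyond counting error, at a ratio of 1.06 (0.972 to 1.16). The FPKM of the 10 genes summed to 443 (buffer), 451 (saline) and 515 (STZ). Without Ccng1 the sums were 413, 422 and 410. Ccng1 made up 6.72% of the summed FPKM in buffer and 20.4% in STZ, and Ccng2 made up 21.2% and 14.5%.

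**Figure D3:**
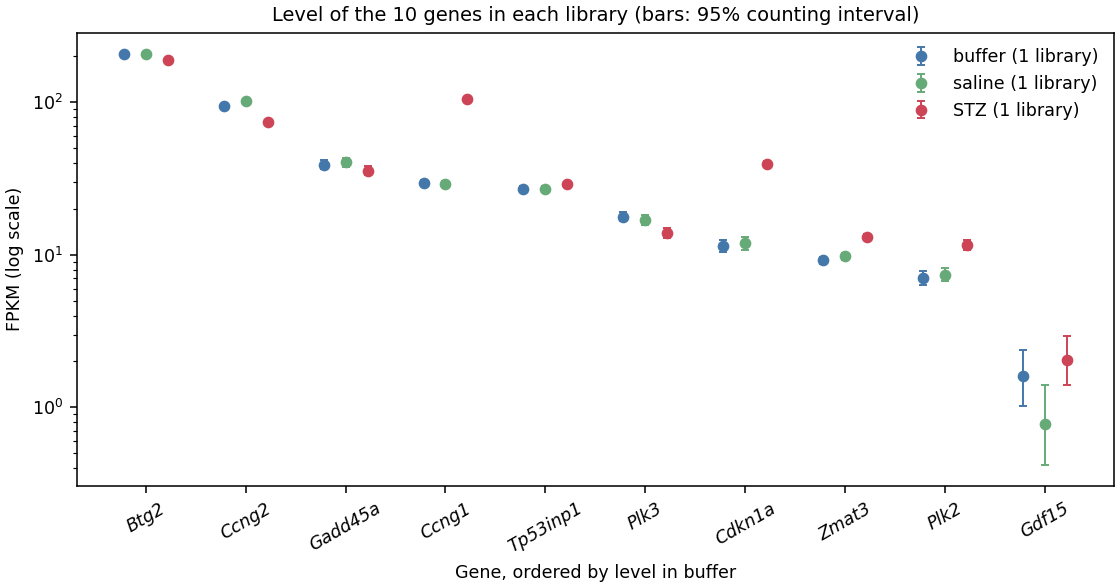
FPKM of the 10 genes in the buffer, saline and STZ libraries on a log axis, 1 point per library, with bars for the exact Poisson 95% counting interval. The STZ interval lies above those of both controls for Ccng1, Cdkn1a, Plk2 and Zmat3, and below both for Ccng2, Plk3 and Btg2.

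The balance between related genes differed among the libraries. The FPKM of Ccng1 over that of Ccng2 was 0.317 in buffer (0.3 to 0.334) and 0.287 in saline (0.272 to 0.303), but 1.41 in STZ (1.36 to 1.47), so cyclin G1 RNA passed cyclin G2 RNA in the STZ library alone. The FPKM of Plk2 over that of Plk3 was 0.396 in buffer (0.35 to 0.447), 0.439 in saline (0.389 to 0.494) and 0.838 in STZ (0.751 to 0.936). Among the inhibitors of the same family, Cdkn1b, which encodes p27, was the most abundant. The FPKM of Cdkn1b was 140 (buffer), 132 (saline) and 100 (STZ), which is a fold of 0.722 over buffer and 0.764 over saline. Cdkn1c, which encodes p57, had an FPKM of 17.5, 19.6 and 20.6. The FPKM of Cdkn1a was 0.0822 of that of Cdkn1b in buffer (0.0744 to 0.0907) and 0.393 of it in STZ (0.37 to 0.417). Cdkn1a was below Cdkn1c in both controls and 1.91 times as high in STZ (1.75 to 2.09).

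Over the 17 family relatives with a mean of at least 10 reads, the median log2 fold was -0.04 against buffer and -0.11 against saline. Of these, 2 were called higher and 0 lower against buffer, and against saline 0 were past either threshold. Among the 14885 genes, 2.58% were called higher and 1.15% lower against buffer. The 2 relatives called higher were Gadd45b and Zmat4. Gadd45b had 28 reads (buffer), 43 (saline) and 57 (STZ), and Zmat4 had 191, 219 and 351. Gadd45g had 1426, 1420 and 999 reads, with folds of 0.703 and 0.704. Btg1, the closest relative of Btg2, had 6276, 6442 and 5038 reads, with folds of 0.802 and 0.78. Tob1, another antiproliferative gene of the Btg family, had folds of 1.24 and 1.17, so relatives of Btg2 lay on both sides of 1.

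**Figure D4:**
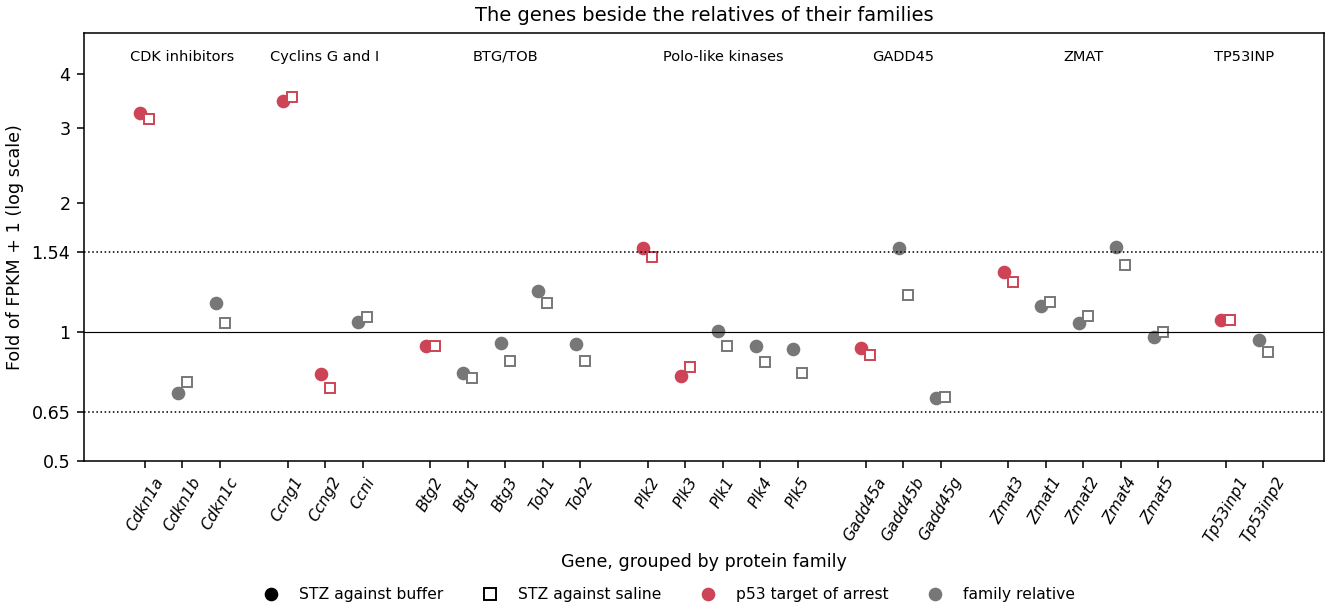
Fold of FPKM + 1 on a log axis for the p53 targets (red) and their family relatives (grey), with circles for STZ against buffer, squares for STZ against saline and dotted lines at the upper and lower thresholds. Cdkn1a and Ccng1 are above 3 in both comparisons, and the highest relative, Zmat4, is at 1.58. Btg4, with at most 1 read in a library, and Gdf15, for which no relative was taken, are not drawn.

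Targets of p53 outside the arrest genes were read beside them. Mdm2, the p53 target that closes the feedback loop, had 1817, 1784 and 1904 reads, with folds of 1.06 and 1.08. Of 30 other p53 targets, outside the arrest genes, 29 were listed and 26 had a mean of at least 10 reads. Of the 26, 8 were called higher than in buffer and 0 lower, and 5 were called higher than in saline and 0 lower. Among the 14885 genes with the same minimum, 2.58% were called higher than in buffer and 2.37% higher than in saline. The median log2 fold of the 26 was 0.14 against buffer and 0.13 against saline, beside 0.16 and 0.24 for the arrest genes. The 5 of the 26 called against both controls were Phlda3, Eda2r, Pmaip1, Ephx1 and Bbc3. Phlda3, an inhibitor of Akt, had 60, 72 and 374 reads, with folds of 4.61 and 4.06. Eda2r, a member of the TNF receptor family, had 19, 6 and 173 reads, with folds of 3.18 and 3.94. Pmaip1 and Bbc3, which encode the cell death proteins Noxa and Puma, had lower folds. Pmaip1 had 2, 5 and 26 reads, with folds of 2.38 and 1.74. Bbc3 had 106, 126 and 227 reads, with folds of 1.92 and 1.67. Ephx1, an epoxide hydrolase, had 42, 76 and 138 reads, with folds of 2.28 and 1.56, the second barely past the threshold.

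The partners of p21 are the genes whose products it binds. Of the 13 cyclins, CDKs and PCNA in this list, 1 was called higher and 1 lower against buffer, and against saline 0 were above and 1 below. The shares among the 14885 genes were 2.58% higher and 1.15% lower against buffer, and 2.37% and 1.95% against saline. Ccnd1, the G1 cyclin D1, was the partner that was lower in both, with 30498, 30728 and 18626 reads and folds of 0.611 and 0.605. Ccnd2 was higher only against buffer, at 53, 90 and 150 reads. Cdk4 had an FPKM of 202, 201 and 206, and Cdk1 of 80.1, 86.1 and 85.5. Ccnb1, which encodes cyclin B1, had 1950, 2038 and 2560 reads, with folds of 1.3 and 1.24. Against buffer 7 of the 13 had a fold above 1 and 6 a fold below 1. Pcna, the sliding clamp of DNA replication, had 3074, 2908 and 2355 reads, with folds of 0.766 and 0.807. The FPKM of Cdkn1a over that of Cdk2 was 0.555 in buffer (0.494 to 0.622), 0.527 in saline (0.471 to 0.589) and 2.47 in STZ (2.25 to 2.7), so Cdkn1a was the lower of both in the controls and the higher in STZ. Against Cdk4 it stayed far below, at 0.0567 in buffer and 0.192 in STZ.

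Of the genes of cycling cells, 0 of 18 were past either threshold. Few genes were: 2.58% of the 14885 were called higher and 1.15% lower against buffer, and 2.37% and 1.95% against saline. The 18 genes had a median log2 fold of -0.17 against buffer and -0.15 against saline. Of the 18, 13 had a fold below 1 against buffer, beside 6433 of the 14885 genes. Mki67, which encodes the Ki67 antigen, had 14620 reads in buffer, 14608 in saline and 10042 in STZ, a fold of 0.69 against each control. This was the lowest fold of the 18 against buffer. The other 5 of the 18 had a fold above 1 against buffer, up to 1.14 for Aurka, so the list was split. The 13 genes of retinal progenitors had a median log2 fold of -0.35 against each control. Lhx2, a transcription factor of dividing progenitors, and Dll1, a Notch ligand, were called lower in both comparisons, with folds of 0.603 and 0.573 over buffer.

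Lists that stand for other inputs to the same genes differed among themselves, and whether these inputs acted on the 10 genes was not tested. The lists are not separate. Sesn1 is both a FoxO target and among the other p53 targets, which also hold Sesn2 of the integrated stress list. Cdkn1b is both a FoxO target and a family relative. The 12 FoxO targets, the class to which Ccng2 also belongs, had a median log2 fold of -0.27 against buffer and -0.33 against saline. Of the 12, 9 had a fold below 1 against buffer, beside 6433 of the 14885 genes with a mean of at least 10 reads. Bcl2l11 was the only FoxO target called, lower against both controls. For this list and the next ones, the shares called among the 14885 genes were 2.58% higher and 1.15% lower against buffer. Against saline they were 2.37% and 1.95%. Of the 12 immediate early genes with a mean of at least 10 reads, Fos and Egr1 were called higher against both controls. Fos had 84 reads (buffer), 78 (saline) and 171 (STZ), and Egr1 had 32, 38 and 168. The reads of all 14 immediate early genes summed to 3640, 3335 and 3542. Among the 11 genes of the integrated stress response, a pathway that also acts on Gdf15, the median log2 fold was 0.14 against buffer and 0.09 against saline. In that list Ddit4 was called lower against both controls, with 5072, 4767 and 2975 reads, and 0 genes were called higher against both.

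**Figure D5:**
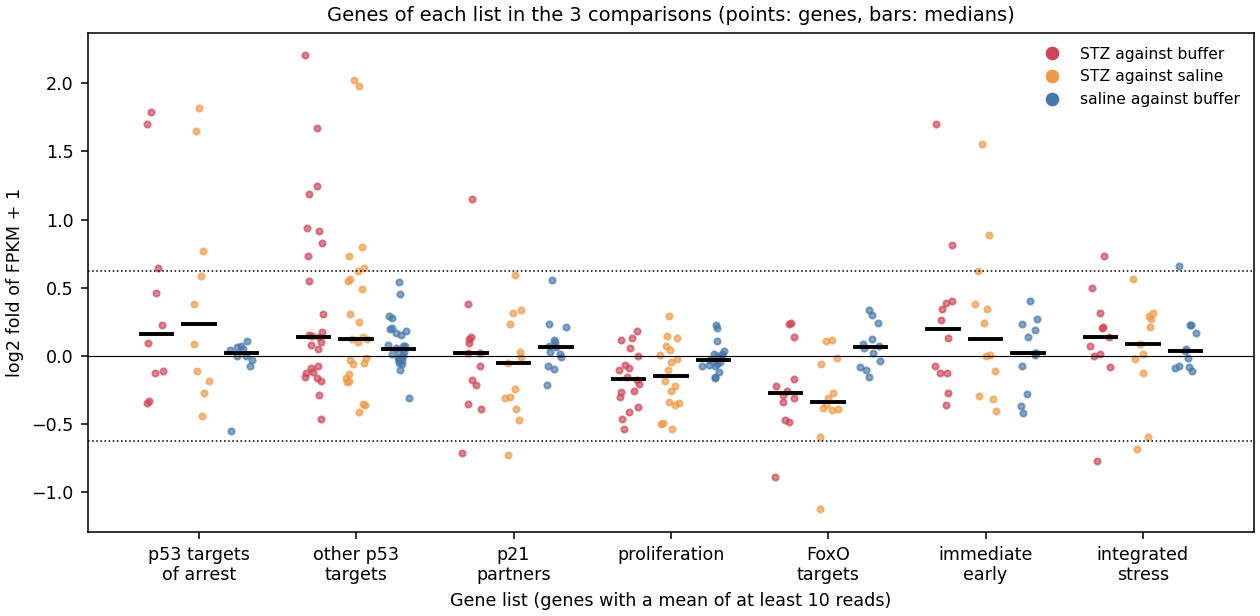
log2 fold of FPKM + 1 for each gene with a mean of at least 10 reads in 7 lists, for each of the 3 pairs of libraries. Points are genes, black bars are medians and dotted lines are the upper and lower thresholds. Of the p53 targets of arrest, 2 points stand at 1.70 and 1.79 in STZ against buffer, above the rest of their list.

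Markers of other cells also moved with the STZ library. All 16 microglia markers had a fold above 1 against buffer, from 1.27 to 4.45, and 13 were called higher against both controls. Among the 14885 genes, 2.58% were called higher against buffer and 2.37% against saline. Of the microglia markers, Lyz2, Tyrobp, C1qc and Fcer1g were the highest against buffer and Aif1 and Cx3cr1 the highest against saline. The reads of the 16 markers summed to 2046 (buffer), 2540 (saline) and 5527 (STZ). Reads of 13 lens crystallins summed to 223, 713 and 4273, with Cryba2 and Crybb2 at 0 in buffer. Of the 10 vessel markers, 5 were called lower against buffer, where 1.15% of the 14885 genes were. The reads of the 10 summed to 13962, 15309 and 10243. Kdr alone held 13149, 14564 and 9972 of these, and the other 9 markers summed to 813, 745 and 271. Reads of 12 markers of pigment and ciliary epithelium summed to 3205, 10232 and 3289, a sum high in saline alone. Aldh1a1 held 1904, 6838 and 1904 of these. Of the 9 with a mean of at least 10 reads, 8 had a fold above 1 in saline against buffer. The exception was Ttr, with 477, 398 and 456 reads. The part of the cells with these markers in the values of the 10 genes was not tested.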

How the data were processed

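The authors sequenced 1 library per condition. They aligned quality-trimmed reads with TopHat2 (at most 2 mismatches) and kept uniquely placed reads, so genes with near-identical copies may be undercounted. The submitters' processing notes name FastQC, TopHat2 and the build rn6. The annotation is not given in the sources used here. The authors deposited an FPKM, a TPM and an estimated count per gene. The estimated counts deposited include fractions (12.9% to 13.2% of values per library) and were rounded. How fractions arose from uniquely placed reads is not given, so whether such genes were undercounted is not known. Symbols are those of the deposited table. Pidd1, Fgf15 and Hba-a2 were not listed under these symbols.

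Folds used FPKM with a pseudocount of 1, and count ratios an exact Clopper-Pearson interval. The reads carry no molecular identifiers and may be copies of one molecule, so intervals cover counting error only. List medians were taken over genes averaging 10 counts or more. Every member was named. From the other lists, genes past a threshold against both controls were named, at most 4 per list by size, with Mdm2, Mki67, Pcna and family relatives. Some genes that this rule names are not reported here. Bbc3, Ccnd2, Ccnb1, Cdk1, Cdk2, Cdk4, Gadd45b, Zmat4, Tob1, Aurka, Aif1, Cx3cr1, Kdr, Aldh1a1 and Ttr were added after their values were seen. Sesn1 and Sesn2 were named for being shared between lists. The members and lists were chosen with earlier results of these data known. No list is independent evidence.

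Of the deposited columns, those for TPM served as an alternative. Other alternatives were a pseudocount of 0.1, CPM from counts, TMM factors (edgeR 4.0.16) and median-of-ratios factors (DESeq2 1.42.0) in R 4.3.3, thresholds of 2 and 0.5, other minimums, and the mean of both controls. No count model was fitted, since there are no replicates. Calculations were tested on Poisson counts simulated around the mean of the controls, with changes placed in well covered genes. The simulation held no spread between animals, so it checked the arithmetic only. Promoter windows came from RefSeq (GRCr8), matched by gene identifier. Python 3.11.15, numpy 2.4.6, pandas 2.3.3, scipy 1.17.1 and matplotlib 3.10.9 were used. The blood markers had 498, 706 and 412 summed reads in buffer, saline and STZ, and the 13 inner retinal neuron markers had a median log2 fold of 0.27 in STZ against buffer.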

Additional observations from a re-analysis of the deposited data

How the results depend on the processing

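No paired analysis was possible because each condition has 1 library, although the STZ and buffer libraries may share animals, and for the same reason no library could be left out within a condition. The number of members past the thresholds was 3 in STZ against buffer and 3 against saline. Calling a member where its counting interval excludes 1 gave 8 and 10 members, and 1 in saline against buffer. The same rule with TMM scaling, chosen after the data were seen, gave 8, 9 and 1. In saline against buffer, where 0 members were called, 1 member (Gdf15, lower) was called with a pseudocount of 0.1 and 1 with TPM. Requiring a mean of at least 50 reads, which leaves out Gdf15, took the median log2 fold in STZ against saline from 0.24 to 0.0915 and that against buffer from 0.16 to 0.093. Plk2 was not called against buffer with TMM scaling, median-of-ratios scaling or the mean of both controls (folds 1.53, 1.53 and 1.53), and was called against saline with a pseudocount of 0.1 (1.56). Of 160 values of single genes under alternatives, 159 moved by no more than their counting error, 1 moved by more (Btg2 in STZ against buffer, 0.901 with TMM scaling), and 0 called values changed direction. The alternatives reuse the same reads, with TMM factors of 0.985 to 1.01, so called values could hardly change direction and this tally says little. The fold of Gdf15 against saline ranged from 1.56 to 2.43 and still counted as within its wide interval. The fold of Cdkn1a in STZ against buffer ranged from 3.16 to 3.42 and that of Ccng1 from 3.36 to 3.53. Depth limits Gdf15 alone among the 10 genes, and the lack of replicates limits all.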

Other observations

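The close match to the p53 response element was also looked up across all genes, after the runs in Cdkn1a and Ccng1 had been seen, and is given as counts only. Of 11543 genes with a window in the table and a mean of at least 10 reads, 2.29% were above the upper threshold in STZ against buffer and 90 genes were below the lower one. Among the 32 genes whose best run matched at 18 or more of 20 positions, 7 were above the upper threshold and 0 below the lower one. Without Cdkn1a and Ccng1, 5 of 30 genes were above it, 16.7%. Against saline 4 of these 30 were above it, 13.3%, beside 2.11% of the 11543 genes. With at least 17 matches and without both genes, 14 of 168 were above it in STZ against buffer, 8.33%. The median log2 fold of the 30 genes against saline was 0.06, so most of them lay near the controls.

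The 5 genes above the upper threshold against buffer were Guca1b, Cd151, Aen, Pid1 and Ckap2, named after their values were seen. Cd151 and Pid1 are thinly covered. Cd151 had 29 reads in buffer, 10 in saline and 85 in STZ, so its controls lay far apart, and Pid1 had 13, 15 and 33. Ckap2, a spindle-associated protein, had 1659 reads in buffer, 1606 in saline and 2757 in STZ. Aen, a nuclease induced by p53, had 917, 1148 and 1771 reads, and its fold was 1.89 against buffer and just short of the threshold against saline. Guca1b, a photoreceptor calcium sensor, had 73, 99 and 179 reads. Gtse1, a G2 and S phase protein that restrains p53, matched at 19 positions and had 999, 997 and 1365 reads, a fold of 1.35 against buffer. Rnps1, also with 19 matches, had 7184, 7174 and 6731 reads. Of the 7 genes with at least 19 matches, the 2 above the upper threshold in STZ against buffer were Cdkn1a and Ccng1. The rest, Gtse1, Cldn16, Tmsbl1, Rnps1 and LOC102549694, had folds of 1.35, 1.16, 0.993, 0.934 and 0.827 against buffer. A match in a window thus went with high folds in some genes and with folds near 1 in others.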
